A study of Mus musculus with 8 samples.

Results

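The DNAJ proteins are a family of co-chaperones of the HSP70 chaperones, and the genes described here are the protein-coding rows of the deposited mouse gene count table whose symbol begins with Dnaja, Dnajb or Dnajc followed by a number. The rule found 45 of the 56748 rows of the table, 4 Dnaja, 13 Dnajb and 28 Dnajc genes. Of these, 39 had enough counts to be tested, among 14723 genes tested in all. Every DNAJ protein carries a J domain, which docks on an HSP70 and stimulates its ATPase, so that the HSP70 clamps onto an unfolded client protein. Class A members also have a zinc-binding region and a glycine- and phenylalanine-rich linker, class B members have the linker without the zinc-binding region, and class C members share little beyond the J domain, which delivers HSP70 to particular places such as the import pore of mitochondria, clathrin coats or spliceosomes. In blood cells a few cytosolic members belong to the heat shock response, several members of the endoplasmic reticulum are induced when unfolded proteins collect there, and maturing red cells rely on chaperones while they fill with haemoglobin.

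RNA was measured by poly(A) RNA sequencing of peripheral blood mononuclear cells (PBMCs), the lymphocytes and monocytes left after density-gradient separation, from wild-type male C57BL/6J mice. The mice were adult, 8 weeks old, were kept on a standard basal diet, and were gavaged daily for 1 month with saline (5 libraries) or with 200 mg/kg/day of fucoidan from Undaria pinnatifida, a sulphated polysaccharide of brown seaweed (3 libraries). Titles name each library as a biological replicate, all share 1 batch date, and p-values measure the spread between these libraries only. The question the design addresses is whether PBMC transcripts differ between fucoidan and saline.

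Total counts ran from 13061703 to 16334932 per library. Lymphocyte and monocyte markers were present in all libraries, and so were red cell transcripts: haemoglobin transcripts took 3.51 to 8.48% of counts after saline and 13.5 to 24.1% after fucoidan. Of 18 tested erythroid markers, 17 rose, with a median log2 fold change (fucoidan over saline) of 2.28 against -0.04 over all genes tested. Platelet markers rose in 14 of 14 (median 1.58), natural killer cell markers rose in 14 of 14 (median 1.11), and B cell markers fell in 12 of 14 (median -0.67). Without fucoidan library 3 the B cell count was 6. In such bulk RNA, fewer cells of a type and less RNA per cell cannot be told apart.

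Promoter windows of the 5 cytosolic genes with the clearest or most variable levels are printed first, because their values are set beside each other below. Each window runs from 250 bases before to 50 bases after a start site, on the plus strand, and comes from RefSeq in build GRCm38.p6, a different build from that of the gene coordinates given later. For a gene with several windows, the one with most matches is shown. Capitals mark the letters searched for: the heat shock pair GAANNTTC or TTCNNGAA, the heat shock triplet GAANNTTCNNGAA or TTCNNGAANNTTC, which contains the pair, and AGATAA, a common form of the site of GATA factors, on both strands.
Dnaja1, chr4:40722218-40722517: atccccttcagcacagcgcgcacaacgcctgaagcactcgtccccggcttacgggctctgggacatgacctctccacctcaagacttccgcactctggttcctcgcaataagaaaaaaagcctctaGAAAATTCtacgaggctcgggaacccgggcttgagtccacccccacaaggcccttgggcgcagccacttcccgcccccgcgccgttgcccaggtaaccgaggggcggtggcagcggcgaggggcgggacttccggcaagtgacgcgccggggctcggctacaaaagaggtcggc
Dnajb1, chr8:83607925-83608224: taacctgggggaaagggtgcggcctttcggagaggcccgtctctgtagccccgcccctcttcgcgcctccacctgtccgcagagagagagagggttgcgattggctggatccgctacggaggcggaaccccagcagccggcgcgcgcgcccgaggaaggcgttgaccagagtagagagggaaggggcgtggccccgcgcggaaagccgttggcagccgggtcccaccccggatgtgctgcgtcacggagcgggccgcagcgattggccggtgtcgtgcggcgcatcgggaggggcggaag
Dnaja4, chr9:54699309-54699608: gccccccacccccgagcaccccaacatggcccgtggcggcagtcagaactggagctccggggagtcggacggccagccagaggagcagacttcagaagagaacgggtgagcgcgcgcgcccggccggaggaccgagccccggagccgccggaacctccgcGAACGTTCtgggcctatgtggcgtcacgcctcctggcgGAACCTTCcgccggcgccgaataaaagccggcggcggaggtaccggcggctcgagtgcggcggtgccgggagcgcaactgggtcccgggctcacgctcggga
Dnajb2, chr1:75236452-75236751: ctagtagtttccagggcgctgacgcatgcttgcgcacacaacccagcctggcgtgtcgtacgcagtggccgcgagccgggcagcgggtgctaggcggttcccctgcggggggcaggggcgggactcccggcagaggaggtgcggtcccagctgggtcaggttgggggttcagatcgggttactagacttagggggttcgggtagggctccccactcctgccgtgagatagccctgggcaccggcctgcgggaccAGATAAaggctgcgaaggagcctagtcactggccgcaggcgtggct
Dnajb6, chr5:29735648-29735947: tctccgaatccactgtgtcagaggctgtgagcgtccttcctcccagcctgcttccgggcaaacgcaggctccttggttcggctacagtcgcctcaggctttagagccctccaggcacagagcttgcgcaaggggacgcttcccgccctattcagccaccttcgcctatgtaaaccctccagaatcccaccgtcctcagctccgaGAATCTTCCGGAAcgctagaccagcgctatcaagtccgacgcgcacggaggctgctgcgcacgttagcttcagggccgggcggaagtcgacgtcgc
The Dnaja1 window holds 1 pair that begins 124 bases before the start site, and the Dnaja4 window holds 2 pairs that begin 90 and 52 bases before it. The Dnajb6 window holds 1 triplet that begins 46 bases before the start site. The Dnajb2 window holds AGATAA just after the start site, and none of these letters is in the Dnajb1 window. These matches describe the letters in the windows and nothing about binding. Across 32851 RefSeq windows of the same length, 15.1% held the pair, 0.603% the triplet and 11.2% AGATAA. Counted the same way, by window, 8 of 50 member windows held the pair, 2 the triplet and 2 AGATAA. Counted by gene, with a match in any window, 7 of the 37 members with a window held the pair (Dnaja1, Dnaja4, Dnajb4, Dnajb6, Dnajc10, Dnajc27 and Dnajc5g). By gene, 1 held the triplet (Dnajb6) and 2 held AGATAA (Dnajb2 and Dnajb7). The remaining members had no window and were not searched.

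Members differed widely in level. On a per-length scale (RPKM, the TMM-scaled CPM of a gene per kilobase of its deposited length, where CPM is its count relative to library size), the highest saline means were those of Dnaja2 at 39.5 ± 3.24 (SD, n = 5), Dnajc9 at 38.5 ± 4.27, Dnajc8 at 38.4 ± 3.51 and Dnajb1 at 38.1 ± 20.5. These 4 lay within each other's SD, so their order is not resolved. Dnajc5 followed at 29.1 ± 1.79, Dnaja1 at 29.0 ± 19.1 and Dnajb9 at 26.6 ± 8.89 RPKM, and the intervals of mean ± SD of these 3 overlapped. Dnajc6, the neuronal form of the clathrin-uncoating protein auxilin, was lowest of the tested members at 0.191 ± 0.0705 RPKM. With fucoidan the per-length level of Dnaja1 was 65.1 ± 25.4 (SD, n = 3) and that of Dnajb1 was 59.9 ± 22.9 RPKM, while Dnaja2 stood at 41.3 ± 3.92 RPKM.

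**Figure D1:**
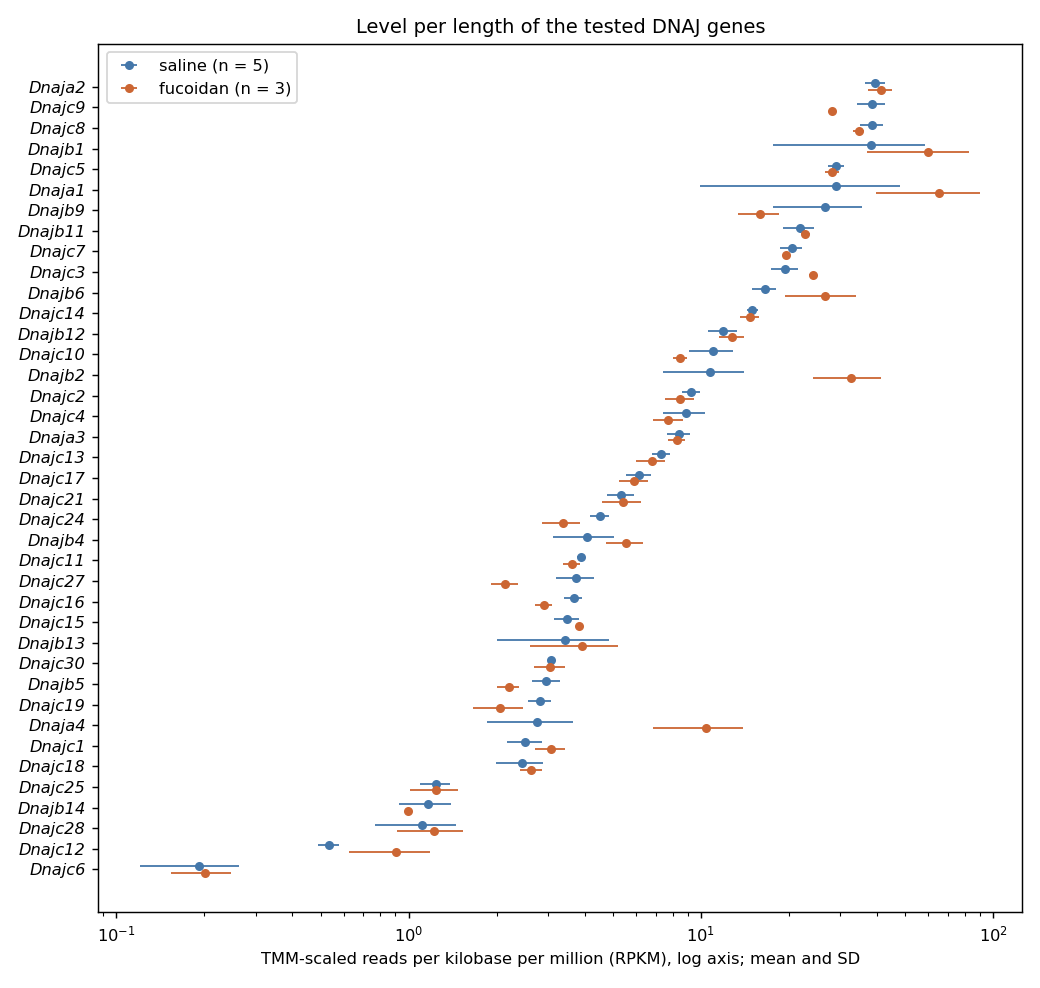
Level of each tested member on a log axis in RPKM, as the mean of 5 saline and of 3 fucoidan libraries with SD. The members span from about 39.5 RPKM for Dnaja2 down to 0.191 RPKM for Dnajc6 after saline, and Dnaja4, Dnajb2 and Dnajb6 are the ones whose means lie higher after fucoidan with an adjusted p under 0.05.

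The 6 untested members were near or at 0. Dnajb7 had 12 counts in the 8 libraries together, Dnajb8 had 8, Dnajb3 had 3 and Dnajc22 had 1. Dnajc5b and Dnajc5g had 0 counts, which allows up to 0.0245 CPM (3 counts over all libraries together, counting error only). Dnajb3, Dnajb7 and Dnajb8 are known from the testis.

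With fucoidan 3 members rose and 2 fell among the 39 tested. The risers Dnaja4, Dnajb2 and Dnajb6 are cytosolic, of classes A and B, and the fallers Dnajc27 and Dnajc9 are of class C. The 5 called members are 12.8% of those tested, and 13.8% of all genes tested were called in the same comparison by edgeR's quasi-likelihood test (adjusted p under 0.05). By direction, 9.11% of all genes were called higher and 4.65% lower. The median log2 fold change of the members was -0.01 beside -0.04 over all genes tested, with 20 members below 0 and 19 above it. In 12 members (30.8%) the groups did not overlap, against 22.6% of all genes. Fucoidan lay wholly above saline in 5 of the 39 members, against 1715 of 14723 genes (11.6%). It lay wholly below in 7 of the 39, against 1613 of 14723 genes (11.0%). The share of members called was therefore near the background, and the results below concern single genes.

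**Figure D2:**
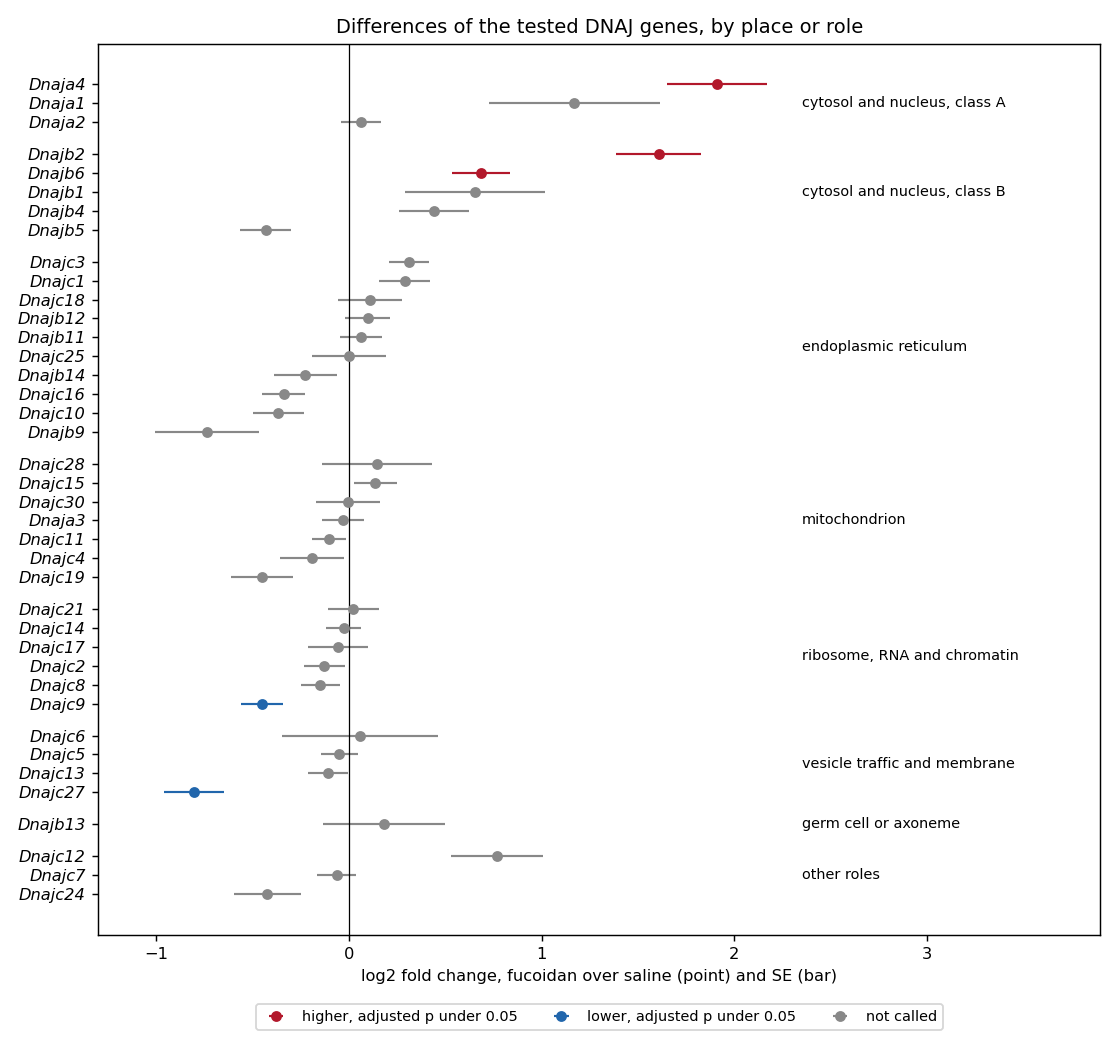
Log2 fold change (fucoidan over saline) of each tested member with its SE, arranged by place or role in the cell, with called members in colour. Changes are spread from -0.80 for Dnajc27 to 1.91 for Dnaja4, and all 3 members called higher are in the cytosolic classes A and B.

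**Figure D3:**
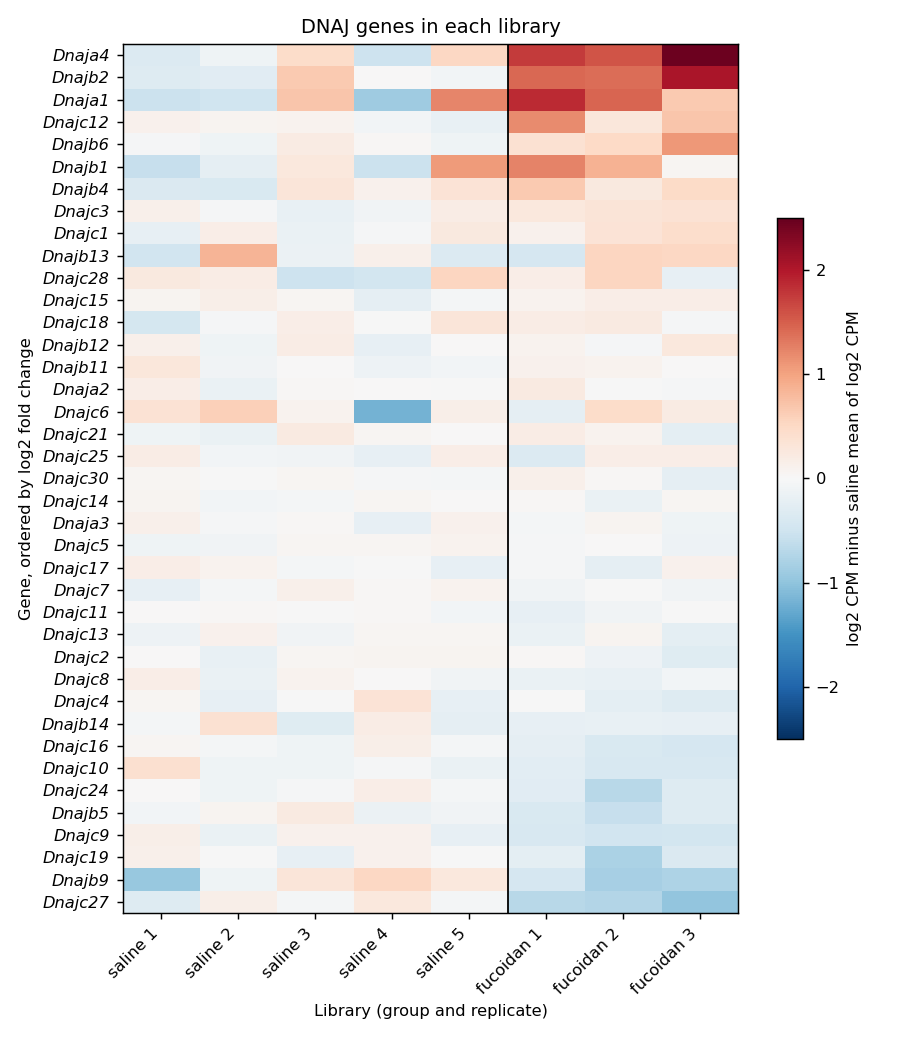
Heat map of the 39 tested members (rows, ordered by log2 fold change) in each of the 8 libraries (columns, saline left of the line), coloured by log2 CPM minus the gene's saline mean. Dnaja4 and Dnajb2 are dark red in all 3 fucoidan libraries, Dnaja1 and Dnajb1 are red in saline library 5 as well as in fucoidan libraries 1 and 2, and Dnajc27 is blue in all 3 fucoidan libraries.

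Among the 3 cytosolic class A genes, 1 rose, and the group's median log2 fold change was 1.17. Dnaja4 (ENSMUSG00000032285, GRCm39 chromosome 9, 54606157 to 54623599, plus strand) encodes a class A co-chaperone of the cytosol. It measured 7.41, 8.73, 12.96, 6.65 and 13.6 CPM in saline libraries 1 to 5 and 31.8, 28.3 and 51.7 CPM in fucoidan libraries 1 to 3. All fucoidan libraries lay above all saline libraries, with a gap from 13.6 to 28.3 CPM. The means were 9.86 ± 3.20 (SD, n = 5) and 37.2 ± 12.7 CPM (SD, n = 3). Dnaja4 rose 3.76-fold (log2 fold change 1.91, SE 0.26, adjusted p = 0.00396), the largest change of any tested member. The gene overlaps Wdr61 on the opposite strand, and whether strand was used in the counting is unknown here, so their reads may be mixed. Wdr61 itself measured 19.1 ± 2.65 CPM after saline and 17.7 ± 4.99 CPM after fucoidan.

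Dnaja1 (ENSMUSG00000028410, chromosome 4, 40722150 to 40737149, plus strand), a major cytosolic partner of HSP70 and a heat shock gene, had values that spread within both groups. Its levels were 145, 151, 342, 115 and 496 CPM in saline libraries 1 to 5 and 770.0, 581 and 333 CPM in fucoidan libraries 1 to 3. Saline libraries 3 and 5 stood far above the other 3 saline libraries, fucoidan library 3 lay just below saline library 3, and the groups overlapped. The fold change was 2.25 (log2 1.17, SE 0.44), and it did not pass the test (adjusted p = 0.110). Without saline library 5 the log2 fold change was 1.58 and passed (adjusted p = 0.0281); over all alternatives it ranged from 0.87 to 1.58. Dnaja1 overlaps Smu1 on the opposite strand, which measured 64.3 CPM after saline and 61.0 CPM after fucoidan.

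Dnaja2, a constitutive class A partner of HSC70, was steady. It read 131, 104, 119, 118 and 116 CPM in the saline libraries in order and 136, 117 and 115 CPM in the fucoidan libraries. The groups overlapped, and the log2 fold change was 0.06 (SE 0.10, adjusted p = 0.748).

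Of the 5 cytosolic class B genes, 2 rose, and the median log2 fold change was 0.66. Dnajb2 (ENSMUSG00000026203, chromosome 1, 75213050 to 75222336, plus strand) encodes a co-chaperone that binds ubiquitin and hands clients to the proteasome. Its level was 35.4, 36.4, 69.8, 44.3 and 42.0 CPM in the saline libraries in order and 119, 117 and 181 CPM in the fucoidan libraries. Saline library 3 stood above the other saline libraries, yet all fucoidan libraries lay above it. The means were 45.6 ± 14.1 (SD, n = 5) and 139 ± 36.6 CPM (SD, n = 3), a 3.05-fold rise (log2 fold change 1.61, SE 0.22, adjusted p = 0.00396).

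Dnajb6 (ENSMUSG00000029131, chromosome 5, 29940686 to 30023132, plus strand), a suppressor of protein aggregation, differed less. Saline libraries 1 to 5 held 98.5, 92.7, 116, 102 and 93.1 CPM and fucoidan libraries 1 to 3 held 131, 142 and 212 CPM. The saline libraries were close together, all fucoidan libraries lay above them, and fucoidan library 3 was highest. The rise was 1.61-fold (log2 fold change 0.68, SE 0.15, adjusted p = 0.0127). Without fucoidan library 3 the log2 fold change was 0.45 (adjusted p = 0.0476). A processed pseudogene of Dnajb6 held 32 to 45 counts per library, so some reads of Dnajb6 may be assigned to its copy.

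Dnaja4, Dnajb2 and Dnajb6 each had fucoidan library 3 as their highest, as did the erythroid markers. The summed level of the erythroid marker list was 33168 to 91723 CPM after saline and 161460 to 385208 CPM after fucoidan, with fucoidan library 3 highest and saline library 3 highest among controls. Saline library 3 was also the highest control for Dnajb2 and Dnajb6. For Dnaja4 the highest control was saline library 5, which had the lowest erythroid sum. The saline libraries of Dnaja4 ran 5, 3, 2, 1 and 4 from high to low, as for Dnaja1, Hspa1a and Hspa1b. Its fucoidan libraries ran 3, 1 and 2, against 1, 2 and 3 for those genes. In every one of the 8 libraries Dnajb6 held the same rank as Hscb, a J-domain gene described below. The summed level of the platelet list, 2927 to 6215 CPM after saline and 8781 to 18887 CPM after fucoidan, was likewise highest in fucoidan library 3. None of the defining haemoglobin genes was at 0 in any library. The part of red cell or platelet RNA in the 3 rises was not tested.

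**Figure D4:**
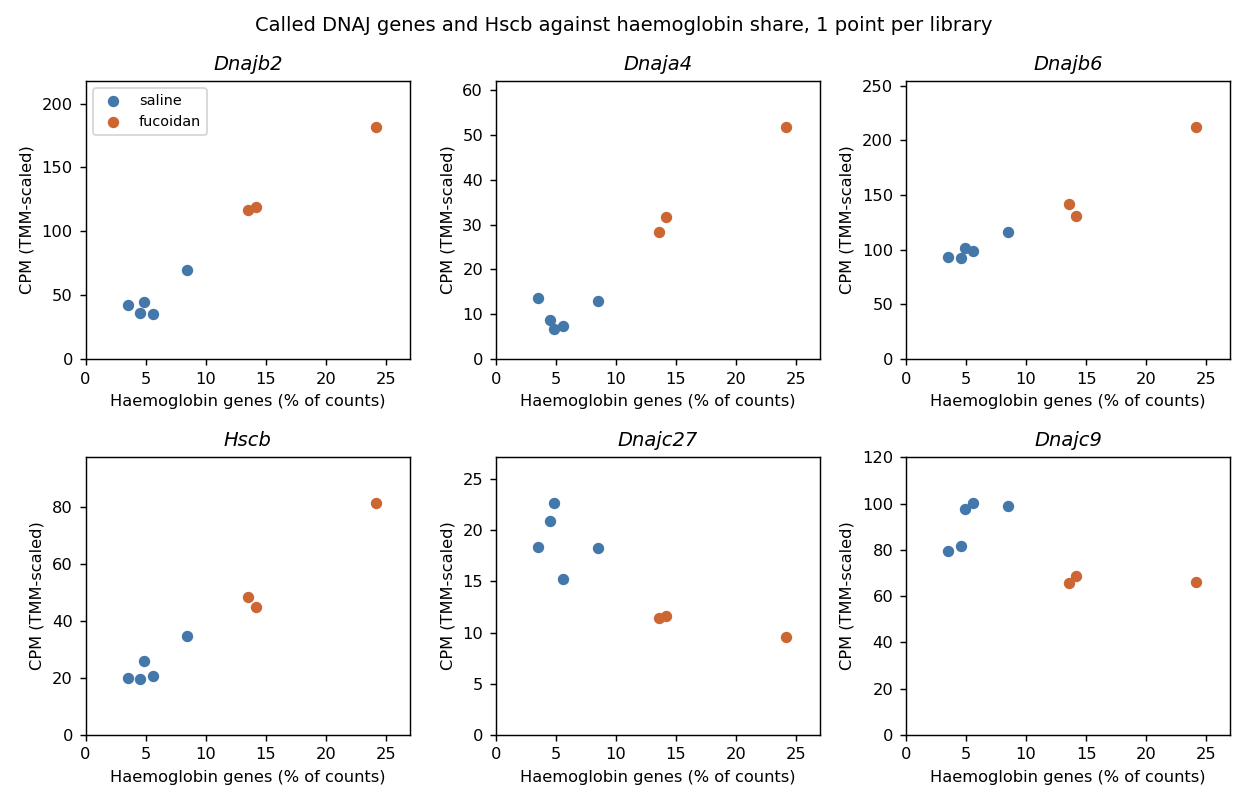
Level in CPM of the 5 called members and of Hscb in each library (1 point per library, coloured by group) against the percent of that library's counts taken by haemoglobin genes. The fucoidan libraries lie at 13.5 to 24.1% and the saline libraries at 3.51 to 8.48%, fucoidan library 3 is at the top for Dnajb2, Dnaja4, Dnajb6 and Hscb, and all fucoidan points lie below the saline points for Dnajc27 and Dnajc9.

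Dnajb1 (ENSMUSG00000005483, chromosome 8, 84334822 to 84339282, plus strand), the classical heat-inducible HSP40, spread as Dnaja1 did. It measured 74.2, 95.1, 133, 76.5 and 232 CPM in saline libraries 1 to 5, and the fucoidan libraries had 260.4, 201 and 115 CPM. The second highest value of all 8 was that of saline library 5, and fucoidan library 3 lay below saline library 3, so the groups overlapped. The log2 fold change was 0.66 (SE 0.36, adjusted p = 0.270). Without saline library 5 it was 1.02 and passed the test (adjusted p = 0.0407), and without fucoidan library 1 it was 0.37.

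The remaining class B members of the cytosol did not pass. Dnajb4, a close relative of Dnajb1, had a log2 fold change of 0.44 (SE 0.18, adjusted p = 0.139), and in the fit with the replicate block it was 0.61 and passed (adjusted p = 0.0392). Dnajb5 had a log2 fold change of -0.43 (adjusted p = 0.0530) with all fucoidan libraries below all saline libraries. It passed the test in 4 of 16 alternatives, among them the one without saline library 1 (adjusted p = 0.0482).

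Within the saline group, Dnaja1, Dnajb1 and Dnajb9 were the members whose highest library exceeded the lowest by over 2-fold, among the 30 members with a saline mean of at least 10 CPM. The ratios were 4.33 for Dnaja1, 3.12 for Dnajb1 and 2.78 for Dnajb9, while the median was 1.30 over these members and 1.36 over 8685 genes at that level. Only 0.449% of those genes were at least as spread as Dnaja1 and 1.06% as spread as Dnajb1. Ordered from high to low, the libraries ran fucoidan 1, fucoidan 2, saline 5, saline 3, fucoidan 3, saline 2, saline 1 and saline 4 for Dnaja1. For the stress-induced HSP70 genes Hspa1a and Hspa1b the order was the same except that saline 5 came before fucoidan 2. The cause of this spread between mice or samples was not tested.

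**Figure D5:**
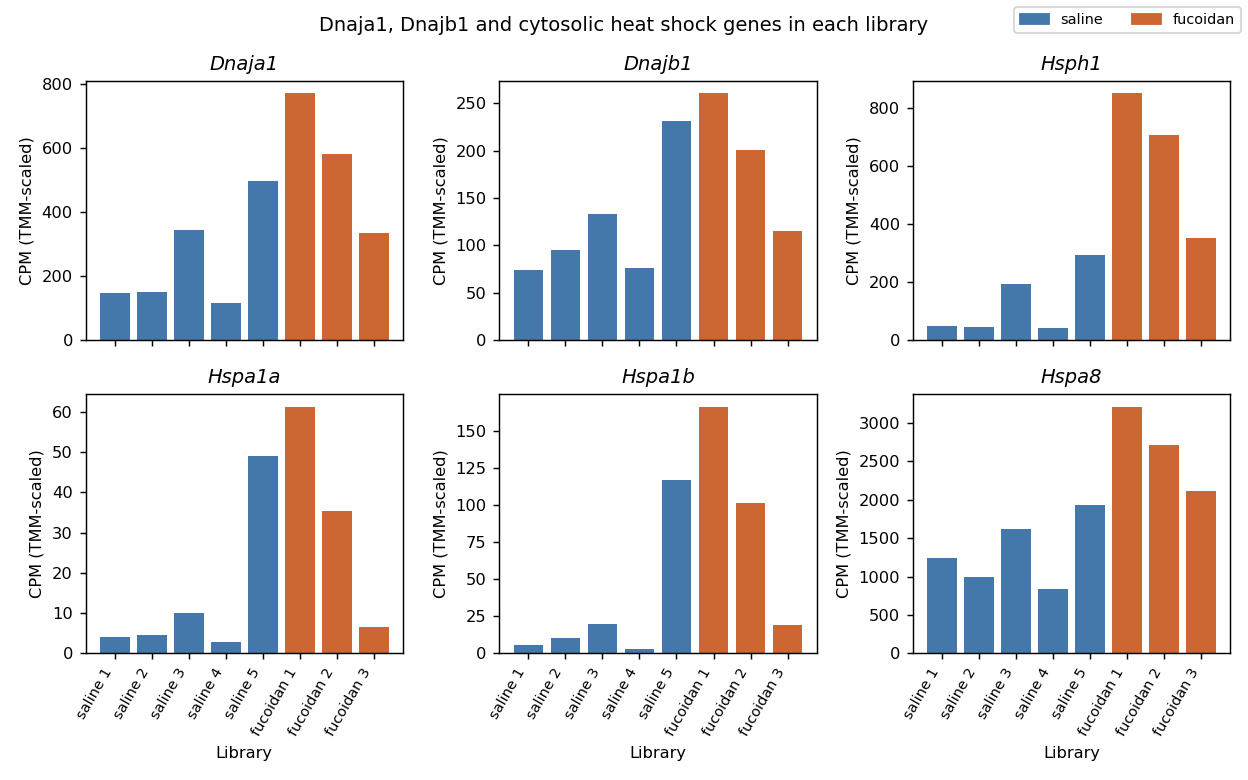
Level in CPM (bars, from 0) of Dnaja1, Dnajb1 and 4 HSP70 or HSP110 genes in each of the 8 libraries, coloured by group. Saline library 5 is above fucoidan library 3 for Dnaja1, Dnajb1, Hspa1a and Hspa1b, whereas all fucoidan bars are above all saline bars for Hsph1 and Hspa8.

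Hspa1a and Hspa1b, near-identical copies whose reads can be split by the counting, showed this spread more widely. Hspa1a had 4.07, 4.50, 10.05, 2.83 and 49.1 CPM in the saline libraries in order and 61.3, 35.3 and 6.60 CPM in the fucoidan libraries. Hspa1b had 5.26, 10.3, 19.8, 3.06 and 117 CPM in the saline libraries and 166, 101 and 19.3 CPM in the fucoidan libraries. Neither passed the test, with log2 fold changes of 1.29 (SE 0.92, adjusted p = 0.401) and 1.62 (SE 1.10, adjusted p = 0.384). Without saline library 5 both did, at 2.70 (adjusted p = 0.0230) and 3.32 (adjusted p = 0.0176).

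The constitutive cytosolic HSP70, Hspa8, rose. It stood at 1243, 995, 1617, 838 and 1929 CPM in the saline libraries and 3215, 2721 and 2119.7 CPM in the fucoidan libraries. All fucoidan libraries were above all saline libraries (log2 fold change 1.02, SE 0.25, adjusted p = 0.0204). Without saline library 1, fucoidan library 1 or fucoidan library 2 the call was lost, at adjusted p of 0.0571, 0.0897 and 0.0659, and without the low-count filter it was lost at adjusted p = 0.141. The HSP70 of the endoplasmic reticulum, Hspa5 (BiP), had a log2 fold change of 0.03 (SE 0.15, adjusted p = 0.923), and that of mitochondria, Hspa9, had 0.13 (SE 0.12, adjusted p = 0.529).

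Of 13 tested HSP70 and HSP110 genes, 4 rose and 0 fell, with a median log2 fold change of 0.30 beside -0.04 over all genes: Hspa8, Hspa4l (1.75), Hspa13 (0.50) and Hsph1 (2.36). The risers are 30.8% of those tested, where 9.11% of all genes were called higher. Hsph1, an HSP110 that recharges HSP70 with ATP, had 49.7, 43.6, 194, 40.0 and 293 CPM after saline and 851, 708 and 350.4 CPM after fucoidan. Its groups did not overlap, yet the adjusted p was 0.0289, and it was 0.235 with the replicate block, 1 of 7 of the 16 alternatives in which the call was lost. The number of these genes called was 2 with the replicate block, 2 without the low-count filter, and 2 without saline library 4 or any 1 of the fucoidan libraries. Without saline library 1, 1 of them was called lower, Hspa12a (-0.93, adjusted p = 0.0491).

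Nucleotide exchange factors and cofactors of HSP70 release or relay the client after the DNAJ protein has delivered it. Of 16 tested, 6 rose and 0 fell: St13 (1.22), Stip1 (1.57), Bag1 (0.54), Bag2 (1.12), Bag3 (0.79) and Hsph1, with a median of 0.07. The risers are 37.5% of those tested, where 9.11% of all genes were called higher. The count was 3 with the replicate block or without the low-count filter, 3 without saline library 4, 2 without fucoidan library 1 or 2, and 1 without fucoidan library 3.

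Cytosolic heat shock genes rose in 13 of 18 tested, with 0 lower, where 9.11% of all genes were called higher. The median log2 fold change of the 18 was 1.21. The 6 with the smallest p were Hspa4l (1.75), Ahsa2 (1.76), Ahsa1 (1.26), Hsp90ab1 (1.12), Chordc1 (1.39) and Hspe1 (0.81), which include a member of the HSP110 group, co-chaperones and a form of HSP90 and the mitochondrial chaperonin partner of Hspd1. The count was 4 without fucoidan library 1, 6 without fucoidan library 2 or saline library 1, 8 without fucoidan library 3 or with the replicate block, 4 without the low-count filter and 16 without saline library 5. Their summed level was 2537 to 6019 CPM after saline and 6553 to 10887 CPM after fucoidan, highest in fucoidan library 1 and, among controls, in saline library 5. The list shares risers with the others, so the counts are not separate. Hspa8, Hspa4l, Hsph1, Stip1 and Bag3 were counted above. Hspd1 and Hspe1, which are mitochondrial though listed here, are counted again below.

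Hscb, a J-domain gene outside the naming rule, delivers iron-sulphur clusters in mitochondria with HSPA9. It had 20.8, 19.5, 34.6, 25.9 and 19.8 CPM in the saline libraries and 44.8, 48.3 and 81.3 CPM in the fucoidan libraries. The groups did not overlap, and Hscb rose (log2 fold change 1.27, SE 0.23, adjusted p = 0.00528). Of the J-domain genes with other names, Gak, an auxilin, had a log2 fold change of -0.04 and Sec63, of the secretory translocon, had -0.12, and neither passed the test.

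In the endoplasmic reticulum, 10 of 11 members were tested and 0 were called, with a median log2 fold change of 0.03 and a range of -0.74 to 0.31. Dnajb9 (ERdj4), a target of XBP1 that holds the sensor IRE1 inactive together with BiP, spread most. It had 33.0, 59.1, 78.4, 91.8 and 76.5 CPM in saline libraries 1 to 5 and 48.1, 36.2 and 37.6 CPM in fucoidan libraries 1 to 3. Saline library 1 was the lowest of all 8, whereas the other 4 saline libraries lay above every fucoidan library. The log2 fold change was -0.74 (SE 0.27, adjusted p = 0.0977), and without saline library 1 it was -0.91 and passed the test (adjusted p = 0.0148).

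Dnajc3 (p58IPK), an inhibitor of kinases that halt translation under stress, had the highest log2 fold change of this group. Its window (chr14:118937682-118937981, plus strand, GRCm38.p6, RefSeq) holds the endoplasmic reticulum stress element, here searched for as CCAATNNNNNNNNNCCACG on both strands. The match is shown because, of the 37 members with a window, no other holds it.
Dnajc3, match 105 bases before the start site: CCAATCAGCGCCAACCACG
Of all windows, 0.119% held these letters. Dnajc3 had 109, 96.8, 87.9, 93.3 and 112 CPM after saline and 119.8, 124 and 128 CPM after fucoidan. All fucoidan libraries lay above all saline libraries by a small margin (log2 fold change 0.31, SE 0.10, adjusted p = 0.0707). It passed with DESeq2 (adjusted p = 0.0239) and without saline library 1 (adjusted p = 0.0454).

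Dnajb11 (ERdj3), a secreted and luminal partner of BiP, was steady at 85.4, 65.7, 70.4, 64.2 and 67.0 CPM after saline and 75.6, 74.8 and 70.7 CPM after fucoidan (log2 fold change 0.06, SE 0.11, adjusted p = 0.756). Dnajc10 (ERdj5), a disulphide reductase, had -0.37 (adjusted p = 0.0967) with no overlap, and saline library 1 was its highest. Dnajc16 had -0.34 (adjusted p = 0.0651), also with no overlap, and passed under upper-quartile scaling (adjusted p = 0.0378). The membrane proteins Dnajb12 and Dnajb14, which take part in degradation of misfolded proteins, had 0.10 and -0.23. Dnajc1 had 0.29, Dnajc18 had 0.11 and Dnajc25 had 0.00 on the log2 scale. Dnajc25 was the only member of the 37 with the letters TGACGTGG, a form of the unfolded protein response element, in a window. That was 1 of 50 member windows, beside 0.676% of all windows.

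Other genes of the unfolded protein response rose in 3 of 26 tested and fell in 0, with a median log2 fold change of 0.19: Edem1 (0.67) and Derl1 (0.81), of degradation from the endoplasmic reticulum, and Hsp90b1 (0.62), its HSP90. These risers are 11.5% of the list, near the 9.11% of all genes called higher. The count was 7 without saline library 1 and 6 with DESeq2, and with the replicate block 1 gene was called lower, Eif2ak3 (-0.51, adjusted p = 0.0230).

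In mitochondria all 7 members were tested and 0 were called, with a median of -0.03. Dnaja3 (Tid1), the class A member of the matrix, had 35.8, 32.2, 33.4, 28.4 and 35.2 CPM after saline and 31.8, 34.6 and 30.5 CPM after fucoidan, with a log2 fold change of -0.03 (SE 0.11, adjusted p = 0.893). Its locus is shared with Coro7 on the opposite strand, which measured 141 CPM after saline and 115 CPM after fucoidan. Vasn overlaps it on the same strand, so reads of these genes may be mixed. Dnajc19, a J protein of the import motor, had -0.45 (adjusted p = 0.0910) and no overlap, but it shares its locus with Fxr1 on the opposite strand, which measured 69.9 CPM after saline and 97.6 CPM after fucoidan. Dnajc15, its relative, had 0.14. The cristae-associated Dnajc11 had -0.10, and Dnajc30, Dnajc28 and Dnajc4 had -0.01, 0.15 and -0.19. Of 15 tested genes of the import motor and chaperonin list, Hspd1 (1.17) and Hspe1 (0.81) rose and Tomm20 (-0.30) fell. Those called are 20% of the list, beside 13.8% of all genes called in either direction. Tomm20 was called in 3 of 16 alternatives and lost in every fit that left out a library, and its adjusted p was 0.0939 with the replicate block. The count of risers was 1 with the replicate block, where Hspd1 was lost (adjusted p = 0.180), 1 without the low-count filter, 1 without saline library 1, 2 or 4 or fucoidan library 2, and 0 without fucoidan library 1.

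Of 6 members listed with the ribosome, RNA or chromatin, 1 fell. Dnajc9 (ENSMUSG00000021811, chromosome 14, 20434706 to 20438978, minus strand) encodes a histone H3-H4 co-chaperone. It measured 100.2, 81.6, 98.8, 97.8 and 79.4 CPM in the saline libraries and 68.9, 65.8 and 66.2 CPM in the fucoidan libraries. All fucoidan libraries lay below all saline libraries, and they were close to each other. The means were 91.6 ± 10.2 (SD, n = 5) and 67.0 ± 1.65 CPM (SD, n = 3), which is 0.732 of the saline level (log2 fold change -0.45, SE 0.11, adjusted p = 0.0191). The call was lost without saline library 4 (adjusted p = 0.0508) and without any 1 of the fucoidan libraries (0.0549, 0.0718 and 0.0754).

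The other members listed there did not pass. Dnajc2 of the ribosome-associated complex had -0.13, the spliceosome-associated Dnajc8 and Dnajc17 had -0.15 and -0.06, and Dnajc21, which acts in ribosome assembly, had 0.02. Dnajc14, known as a membrane protein of the endoplasmic reticulum though listed here, had -0.03.

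Of 6 members of vesicle traffic and membranes, 4 were tested and 1 fell. Dnajc27 (ENSMUSG00000020657, chromosome 12, 4132583 to 4160606, plus strand) joins a Rab-like GTPase domain to a J domain. Saline libraries 1 to 5 had 15.2, 20.9, 18.2, 22.7 and 18.4 CPM, and fucoidan libraries 1 to 3 had 11.6, 11.5 and 9.57 CPM. The highest fucoidan library lay below the lowest saline library, saline 1. The means were 19.1 ± 2.84 (SD, n = 5) and 10.9 ± 1.14 CPM (SD, n = 3), which is 0.572 of the saline level (log2 fold change -0.80, SE 0.15, adjusted p = 0.00662), and it was called in all 16 alternatives.

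Beside these falls, the summed level of B cell markers was 5428 to 6944 CPM after saline and 3263 to 4684 CPM after fucoidan, with fucoidan library 3 lowest. Dnajc27 was also lowest in that library, while Dnajc9 was lowest in fucoidan library 2. No B cell marker was at 0 counts in any library, and the part of B cell RNA in the 2 falls was not tested.

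Dnajc5, the cysteine string protein of secretory vesicles, was steady. It had 187, 191, 209.5, 209 and 215 CPM after saline and 198, 204 and 184 CPM after fucoidan, with a log2 fold change of -0.05 (SE 0.10, adjusted p = 0.788). Dnajc13 (RME-8), which sorts cargo on endosomes, had 79.6, 94.2, 82.2, 90.4 and 90.2 CPM after saline and 77.2, 91.6 and 74.0 CPM after fucoidan, with a log2 fold change of -0.11 (SE 0.10, adjusted p = 0.545). The groups overlapped for both, and Dnajc6 had 0.06.

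Dnajc7, which binds both HSP70 and HSP90 through repeats, had 154, 172, 194, 181 and 189.6 CPM after saline and 168, 176 and 168 CPM after fucoidan, with a log2 fold change of -0.06 (SE 0.10, adjusted p = 0.740). Its locus is shared with Cnp and Nkiras2 on the opposite strand, so reads may be mixed. Cnp measured 296 CPM after saline and 338 CPM after fucoidan, and Nkiras2 measured 46.6 and 62.3 CPM. Dnajc12, a co-chaperone of aromatic amino acid hydroxylases, was at 2.38 ± 0.198 CPM (mean and SD) in the saline libraries and 4.05 ± 1.26 CPM in the fucoidan libraries, with no overlap. Its log2 fold change of 0.77 did not pass (adjusted p = 0.0567), and it did with DESeq2 (adjusted p = 0.0258) and without fucoidan library 2 (adjusted p = 0.0386). Dnajc24, which acts in diphthamide synthesis, had -0.42 (adjusted p = 0.137) with no overlap. Dnajb13, of the axoneme, had 0.18, but its locus is shared with the abundant Ucp2 on the opposite strand, which measured 1118 CPM after saline and 2546 CPM after fucoidan.

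Summed over all members, the family held 1942, 1908, 2302, 1972 and 2503 CPM in saline libraries 1 to 5 and 2871, 2595 and 2396 CPM in fucoidan libraries 1 to 3. Saline library 5 lay above fucoidan library 3, so the groups overlapped. Dnaja1 alone made up 5.81 to 19.8% of the sum after saline and 13.9 to 26.8% after fucoidan. Without Dnaja1 and Dnajb1 the sum was 1662 to 1828 CPM after saline and 1812 to 1948 CPM after fucoidan, a narrower range that still overlapped. As a share of all counts, without the TMM scaling, the members took 0.235 ± 0.0328% in the 5 saline libraries (mean and SD) and 0.225 ± 0.0510% in the 3 fucoidan libraries, so the direction of the summed level depends on that scaling.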

How the data were processed

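Gene expression was measured in 8 PBMC libraries, 5 saline and 3 fucoidan, grouped by their titles. For the fucoidan samples 1 label field mentions saline only, and titles and characteristics were followed. The authors deposited raw whole-number counts per gene with names, biotypes, coordinates and lengths. Per the submitters' processing notes, reads were processed with cutadapt 4.0, Trimmomatic 0.39 and HISAT2 2.2.1 against GRCm39. Which counter, annotation release and strand setting were used, and whether red cells were lysed, was not given in the sources used here.

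Genes were filtered with filterByExpr (14723 kept), scaled by TMM factors and tested with edgeR 4.0.16 (R 4.3.3), quasi-likelihood in robust mode, with calls at 0.05 after Benjamini-Hochberg adjustment over all genes. An SE was taken as the size of the log2 fold change over the root of its F statistic. CPM is TMM-scaled, and RPKM divides it by gene length. The procedure was tested on simulated data. With 13061703 to 16334932 counts per library, the precision of low genes is limited by counting.

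The members and lists were chosen with earlier results of these data known. Values in every library are given for called members and for Dnaja1, Dnaja2, Dnajb1, Dnajb6, Dnajb9, Dnajb11, Dnajc3, Dnajc5, Dnajc7, Dnaja3 and Dnajc13. From each other list the called genes are named, up to 6 by smallest p, with Hspa8, Hspa5, Hspa9, Hspa1a and Hspa1b, and a few are not reported here. Hscb and Hsph1 are given by library because results turn on them. Promoter windows came from RefSeq (GRCm38.p6), and motifs were searched as exact letters. The 16 alternatives were other scalings, DESeq2 1.42.0, limma-voom (limma 3.58.1), other filters, the replicate block, and leaving out each library. Deviations from group means of like-numbered libraries correlated at 0.177, 0.233 and 0.144, and those of unlike-numbered libraries at -0.261 to 0.144. No label states a pairing, so the main fit left the samples unpaired and the replicate block was an alternative.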

Additional observations from a re-analysis of the deposited data

Results flagged for a closer look

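Within the saline group, 3 of 42 measures had a library far from the other 4, where chance alone flags about 1 in 20 groups. Dnajb2 was highest in saline library 3 at 69.8 CPM, and the others were at 35.4 to 44.3 CPM. Dnajc10 was highest in saline library 1 at 71.4 CPM, and the others were at 48.6 to 53.1 CPM. Dnajc2 was lowest in saline library 2 at 40.9 CPM, and the others were at 46.8 to 48.7 CPM.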

How the results depend on the processing

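Of 623 member results under 16 alternatives, 605 kept their side of the threshold, 4 lost the call (all Dnajc9), 14 gained one and 0 reversed with a call. Among those 605, 30 uncalled values, in 10 genes, changed sign. Members called were 8 with DESeq2 (5 higher), and members lower were 4 under upper-quartile scaling, which also moved the members' median to -0.055 and called 1241 genes higher and 989 lower instead of 1341 and 684. Leaving out 1 library gave 928 to 2224 genes called, 746 to 1368 higher and 182 to 856 lower, with the lowest counts without fucoidan library 3. Without saline library 4 there were 1291 called, and fewer fell without saline library 3 (447) or 4 (325) or fucoidan library 1 (365) or 2 (315). It gave 4 to 8 members called, 3 to 5 higher and 1 to 4 lower, and a members' median of -0.0539 to 0.0173. Without the low-count filter the median of all genes was -0.11. The log2 ratio of summed member CPM, 0.30, ranged from 0.23 to 0.37. The cause of these shifts was not tested.

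In the replicate block fit, 1122 genes were called higher and 439 lower, and Dnajb4 was the one member whose call changed. Saline libraries 4 and 5 have no like-numbered partner and add nothing to the difference in that fit.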

Other observations

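The marker lists hold the other cell types of such a preparation. Erythroid genes with the smallest p included Hba-a2, whose log2 fold change was 3.04, Tspo2 (2.59), Fech (2.27), Alas2 (2.33) and Hbb-bs (1.95), and the count of 17 was 11 without the low-count filter. Among platelet genes these included Alox12 (1.60), Treml1 (1.61), Pf4 (1.58), Ppbp (1.58) and Gp9 (1.62), and the count of 14 was 8 without that filter. Natural killer cell genes that rose included Prf1 (1.17), Klre1 (1.27), Klrk1 (1.15), Klrb1b (1.31), Gzmb (1.29) and Ncr1 (0.99).

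B cell genes that fell included Ralgps2 (-0.87), Fcer2a (-1.15), Cd22 (-0.87), Bank1 (-0.89), Cr2 (-0.61) and Blk (-0.68). Of 16 T cell markers 4 rose, Lck (0.59), Lat (0.65), Cd4 (0.51) and Cd8a (0.37), with a median of 0.35, and the count was 8 with DESeq2, 2 with upper-quartile scaling, limma-voom or the replicate block, and 2 without saline library 3 or 4 or fucoidan library 1 or 3. Of 10 classical monocyte markers 2 fell, Fn1 (-1.31) and Ms4a4c (-0.64), and the count was 1 without saline library 4 or any 1 of the fucoidan libraries, while 1 was called higher without saline library 1. Of 12 neutrophil markers 1 fell, Il1b (-0.92), and the count was 0 without fucoidan library 2, while 2 were called higher without saline library 1. The T cell risers are 25% of their list, beside 9.11% of all genes called higher. Fallers are 20% of the monocyte and 8.33% of the neutrophil markers, beside 4.65% of all genes called lower.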
